A study of Mus musculus with 4 samples.

Results

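The transcripts described here are those of 9 very long mouse genes that code for giant muscle and cytoskeletal linker proteins outside the axoneme: Ttn, Neb, Ryr1, Ryr2, Dmd, Syne1, Syne2, Macf1 and Dst. They were taken as the entries of the deposited count table whose Ensembl identifier carries one of those symbols, so they are 9 of 57010 identifiers. All 9 passed the filter on low counts that left 23023 genes for testing. The set was proposed with results of the same comparison in view, so the differences of its members between groups are a description: they are given with their errors and without p-values, and where a member passed or missed the threshold applied to all genes (edgeR adjusted p of 0.05) that is stated as a description too.

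Testis RNA was sequenced in 2 libraries from mice given busulfan and then ursolic acid (ULA group) and in 2 libraries from mice given busulfan alone (BUS group). The animals were male ICR mice, 8 weeks old when purchased, an outbred stock with no engineered allele. Treatment ended 6 weeks after busulfan. The ULA group received 1 intraperitoneal dose of busulfan, an alkylating agent toxic to dividing germ cells, at 30 mg/kg in 5% DMSO, and from 2 weeks later ursolic acid, a plant triterpenoid, at 50 mg/kg by daily gavage for 4 weeks. The BUS group received the same busulfan dose and then vehicle, 5% DMSO in corn oil, so busulfan is shared by both groups. The comparison asks what the added ursolic acid goes with in the busulfan-treated testis. No source used here ties a library to an animal.

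Titin (Ttn) is the molecular spring that spans the sarcomere of striated muscle, and nebulin (Neb) runs along its thin filaments. The ryanodine receptors (Ryr1, Ryr2) release calcium from the endoplasmic or sarcoplasmic reticulum, and dystrophin (Dmd) ties cortical actin to a membrane complex anchored in the extracellular matrix. The nesprins (Syne1, Syne2) sit in the outer nuclear membrane, where they bind SUN proteins and couple the nucleus to the cytoskeleton, and the plakins Macf1 and Dst crosslink actin, microtubules and, for Dst, intermediate filaments and hemidesmosomes. In the testis, where germ cells change nuclear shape and are held by Sertoli cells through actin-based junctions, nucleus-to-cytoskeleton links and cytoskeletal crosslinkers are well-known components.

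The libraries held 16312898 and 15078828 counts in the ULA group and 18147335 and 18216380 in the BUS group. Protein-coding genes took 87.4% and 76.9% of counts in the ULA libraries, against 96.9% and 96.3% in the BUS libraries. A single identifier, ENSMUSG00000119584, took 7.88% and 18.5% in the ULA libraries, against 0.00418% and 0.000637% in the BUS libraries. The annotation used here (GENCODE M21) gave it no symbol. Both ULA libraries thus differed from both BUS libraries in composition, ULA 2 the most. This difference runs with the groups and cannot be told apart from the treatment. Among genes marking cell types, all 14 Sertoli, all 10 Leydig and all 16 spermatid markers passed the filter, which fits the label of testis. The summed spermatid markers reached 9436 and 14115 CPM (counts relative to library size, scaled by edgeR's TMM factors) in ULA libraries, against 3622 and 5030 CPM in BUS libraries. Sertoli markers summed to 1973 and 1210 CPM in ULA libraries, against 6385 and 3325 CPM in BUS libraries, and Leydig markers to 1401 and 883 CPM, against 8846 and 6151 CPM. In bulk tissue, fewer cells of a type and less RNA per cell cannot be told apart, and the part of cell makeup in the differences below was not tested.

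The promoters of 4 members are shown because Ttn and Dmd moved furthest apart between the groups, and because the paralogs Syne1 and Syne2 differed from each other. RefSeq (GRCm38.p6) gave 12 start sites for 8 of the 9 members. The windows are the 250 bases upstream of a start, 5′ to 3′ on the gene's own strand, in lower case, with capitals at every match to a searched motif on either strand. The motifs were the TATA box TATAAA, the GC box GGGCGG, the CCAAT box CCAAT, the cyclic AMP response element TGACGTCA and the MEF2 core, which is CTA and TAG separated by any 4 bases. Matches that overlap are merged in the capitals.
Ttn, chr2:76982548-76982797, minus strand: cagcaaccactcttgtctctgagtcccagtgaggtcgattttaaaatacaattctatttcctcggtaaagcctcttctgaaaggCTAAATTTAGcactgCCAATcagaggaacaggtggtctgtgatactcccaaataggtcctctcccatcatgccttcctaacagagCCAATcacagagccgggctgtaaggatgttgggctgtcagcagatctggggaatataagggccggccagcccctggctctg
Syne1, first start, chr10:5550693-5550942, minus strand: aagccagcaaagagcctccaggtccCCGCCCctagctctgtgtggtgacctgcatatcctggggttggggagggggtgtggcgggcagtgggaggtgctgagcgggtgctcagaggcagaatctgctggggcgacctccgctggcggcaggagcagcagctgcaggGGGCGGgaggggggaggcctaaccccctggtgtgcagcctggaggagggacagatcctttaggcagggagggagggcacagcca
Syne2, chr12:75818068-75818317, plus strand: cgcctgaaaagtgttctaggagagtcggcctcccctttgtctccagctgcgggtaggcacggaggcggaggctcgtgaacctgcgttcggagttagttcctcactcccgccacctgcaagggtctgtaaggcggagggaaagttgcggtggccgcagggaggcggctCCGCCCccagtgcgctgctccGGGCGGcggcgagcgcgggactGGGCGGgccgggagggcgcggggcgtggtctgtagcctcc
Dmd, upstream start, chrX:82948620-82948869, plus strand: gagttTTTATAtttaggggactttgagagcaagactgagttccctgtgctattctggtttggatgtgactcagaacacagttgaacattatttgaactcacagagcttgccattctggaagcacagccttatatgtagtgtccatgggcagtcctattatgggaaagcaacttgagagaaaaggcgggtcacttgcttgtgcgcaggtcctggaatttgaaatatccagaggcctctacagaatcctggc
Dmd, downstream start, chrX:85048045-85048294, plus strand: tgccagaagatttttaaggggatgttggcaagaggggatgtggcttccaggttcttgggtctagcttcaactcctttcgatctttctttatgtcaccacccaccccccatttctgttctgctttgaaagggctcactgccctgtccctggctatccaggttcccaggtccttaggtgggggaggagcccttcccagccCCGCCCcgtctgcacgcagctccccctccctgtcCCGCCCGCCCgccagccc

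The Ttn window held 2 CCAAT boxes and 1 MEF2 core. A CCAAT box lay in 33.8% and a MEF2 core in 3.20% of the 32851 promoter windows of the same length. The Syne1 window at its first start had 2 GC boxes and the Syne2 window 3, and a GC box lay in 32.7% of all windows. The windows shown had 68.0% GC for Syne1 and 70.0% for Syne2, while the other Syne1 starts had 38.8% and 50.8%. The ratio of observed to expected CpG dinucleotides was 0.261 in the Syne1 window shown and 0.870 for Syne2, against a median of 0.373 over all windows. Of the Dmd starts, the upstream one had 1 TATA box, a motif in 12.4% of windows, and 45.2% GC, and the downstream one had 3 GC boxes and 60.0% GC. No window shown held the cyclic AMP response element, found in 1.55% of all windows. A match describes letters only, and the counts are per gene, so the start in use was not measured.

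Ttn (ENSMUSG00000051747), on chromosome 2 from 76703980 to 76982547 on the minus strand (GENCODE M21, GRCm38), has 347 exons in its longest annotated transcript of 106.824 kb. It had 1478 and 1582 counts in ULA libraries, against 273 and 277 in BUS libraries. On the CPM scale these were 89.4 and 125 in ULA, against 14.4 and 13.6 in BUS, a mean of 107 ± 25.4 against 14.0 ± 0.514 (SD, n = 2 each). Both ULA libraries lay far above both BUS libraries, and the ULA libraries differed more from each other than the BUS libraries did. The fitted log2 fold change was 2.94 (SE 0.26), a 7.67-fold higher level in the ULA group. With an offset for GC content and transcript length it was 0.92 (SE 0.22). That offset rests on very few genes at this length, since 2 tested genes exceeded 100 kb and 1 was longer than Ttn.

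Neb (ENSMUSG00000026950), on chromosome 2 from 52136647 to 52378474 on the minus strand, with a longest transcript of 22.489 kb and 157 exons, had 567 and 380 counts in ULA libraries, against 158 and 267 in BUS libraries. These were 34.3 and 30.1 CPM in ULA, against 8.31 and 13.1 CPM in BUS. The groups did not overlap, and the log2 fold change was 1.59 (SE 0.30). With the GC and length offset it was 0.75 (SE 0.29) and no longer passed the threshold applied to all genes.

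Ryr1 (ENSMUSG00000030592), the ryanodine receptor of skeletal muscle, lies on chromosome 7 from 29003344 to 29125179 on the minus strand and has a longest transcript of 15.358 kb with 106 exons. It had 261 and 219 counts in ULA libraries, against 186 and 215 in BUS libraries, or 15.8 and 17.4 CPM, against 9.79 and 10.6 CPM. The groups were apart by less than for Ttn and Neb, with a log2 fold change of 0.70 (SE 0.28) that did not pass. Ryr2 (ENSMUSG00000021313), the cardiac ryanodine receptor, lies on chromosome 13 from 11553102 to 12106945 on the minus strand and has a longest transcript of 16.814 kb with 105 exons. It had 147 and 117 counts in ULA libraries, against 83 and 73 in BUS libraries, or 8.89 and 9.27 CPM, against 4.37 and 3.59 CPM. Ryr2 was the scarcest member in counts and both ULA libraries exceeded both BUS libraries, with a log2 fold change of 1.19 (SE 0.33). Its call was lost without ULA 1 or without ULA 2, with log2 fold changes of 1.23 and 1.18, on library size alone, at 0.97, and with the GC and length offset, at 0.73 (SE 0.30). The call for Ryr1 was gained in 6 of the 15 other fits, among them that offset (0.92, SE 0.27), upper-quartile scaling (0.98), protein-coding genes alone (0.89) and the fit without BUS 2 (0.74).

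Dmd (ENSMUSG00000045103), on chromosome X from 82948870 to 85206141 on the plus strand, spans 2257.27 kb around a longest transcript of 14.91 kb with 79 exons. It was the only member of the 9 with both ULA libraries below both BUS libraries, at 368 and 215 counts in ULA, against 886 and 543 in BUS. These were 22.3 and 17.0 CPM in ULA, against 46.6 and 26.7 CPM in BUS, a mean of 19.7 ± 3.69 against 36.7 ± 14.1 CPM (SD, n = 2 each). BUS 1 was much higher than BUS 2, and the nearest gap between groups was that between ULA 1 and BUS 2. The log2 fold change was -0.90 (SE 0.32) and did not pass, while it passed as lower with DESeq2, with the GC and length offset (-1.64, SE 0.33) and without BUS 2 (-1.26). Without BUS 1 it was -0.46. The BUS 1 library also held the higher sums of Sertoli markers, given above, and of smooth muscle and peritubular markers, of which all 12 were tested, 7 fell and 1 rose. These summed to 531 and 548 CPM in ULA libraries, against 1011 and 611 CPM in BUS libraries. Of all protein-coding genes tested 6.94% were called higher and 20.5% lower. The marker that rose, Actg2 (a smooth muscle actin), made up 179 and 280 CPM of the sums in ULA, against 94.5 and 116 CPM in BUS (adjusted p = 0.0194 by edgeR). The part of these cells in the Dmd difference was not tested.

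Syne1 (ENSMUSG00000096054), which codes for nesprin-1, lies on chromosome 10 from 5020917 to 5551482 on the minus strand and has a longest transcript of 27.908 kb with 146 exons. It had 859 and 746 counts in ULA libraries, against 328 and 414 in BUS libraries, or 52.0 and 59.1 CPM, against 17.3 and 20.4 CPM. Libraries within a group were close and the groups well apart, with a log2 fold change of 1.56 (SE 0.24). With the GC and length offset it was 0.77 (SE 0.22). Ttn and Syne1 kept their direction and passed the threshold in all 15 other fits.

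Syne2 (ENSMUSG00000063450), which codes for nesprin-2, lies on chromosome 12 from 75818134 to 76110926 on the plus strand and has a longest transcript of 21.704 kb with 115 exons. It had 6016 and 4440 counts in ULA libraries, against 9146 and 5584 in BUS libraries, or 364 and 352 CPM, against 481 and 275 CPM. The ULA libraries were close together and lay between the BUS libraries, so the groups overlapped. The log2 fold change was -0.08 (SE 0.29). It was 0.36 without BUS 1 and 0.23 with upper-quartile scaling, so no direction is given.

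Macf1 (ENSMUSG00000028649), the microtubule-actin crosslinking factor, lies on chromosome 4 from 123349633 to 123684360 on the minus strand and has a longest transcript of 23.495 kb with 98 exons. It had 5653 and 3985 counts in ULA libraries, against 6375 and 4455 in BUS libraries, or 342 and 316 CPM, against 335 and 219 CPM. BUS 1 lay within the ULA range and BUS 2 below it. The log2 fold change was 0.25 (SE 0.26), and it changed sign with the GC and length offset (-0.64, SE 0.31) and without BUS 2 (-0.04).

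Dst (ENSMUSG00000026131), which codes for dystonin, lies on chromosome 1 from 33908225 to 34308661 on the plus strand and has a longest transcript of 23.279 kb with 98 exons. It had 6757 and 5717 counts in ULA libraries, against 5106 and 5050 in BUS libraries, or 409 and 453 CPM, against 269 and 249 CPM. Both ULA libraries exceeded both BUS libraries, and the log2 fold change was 0.74 (SE 0.23). Its call was lost without ULA 1 (0.82), without ULA 2 (0.68), without BUS 2 (0.67), on library size alone (0.51) and with the GC and length offset, where the log2 fold change was 0.01 (SE 0.26).

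**Figure D1:**
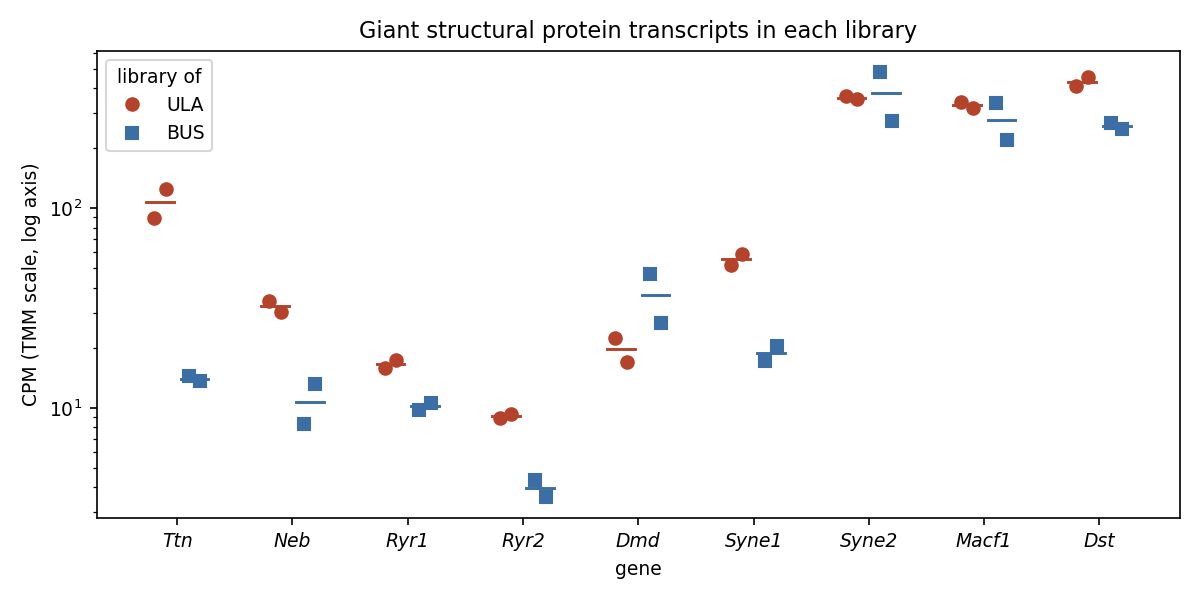
TMM-scaled CPM (log axis) of the 9 members, with 1 point per library, the 2 ULA libraries left of the 2 BUS libraries for each gene and a bar at each group mean. Ttn shows the widest gap, at 89.4 and 125 CPM in ULA libraries against 14.4 and 13.6 CPM in BUS libraries, Dmd is the member with ULA below BUS, and the ranges of Syne2 and Macf1 overlap.

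Across the members, 5 (Ttn, Neb, Ryr2, Syne1 and Dst) passed the threshold as higher and none as lower, against 11.8% higher and 15.3% lower (27.0% in all) among the 23023 genes tested with edgeR's quasi-likelihood test. Since the members were chosen on this contrast, nothing is read from that count. At an unadjusted p under 0.05 there were 6 higher and 1 lower, and DESeq2 called 5 higher and 1 lower. Without either ULA library 3 members (Ttn, Neb and Syne1) were called higher. Both ULA libraries exceeded both BUS libraries for 6 members, a pattern held by 37.9% of all genes, and lay below them for 1 member, a pattern held by 37.2%. The median log2 fold change over the members was 0.74, against 0.02 over all genes tested and -0.22 over the 16271 protein-coding genes. With the GC and length offset 3 members (Ttn, Ryr1 and Syne1) were called higher and 1 (Dmd) lower, against 8.66% and 12.6% (21.2% in all) of all genes with that offset. Library size alone moved the median of all genes to -0.20 and called 3 members higher and 1 lower, against 8.15% higher and 21.9% lower (30.0% in all) of all genes. Upper-quartile scaling moved it to 0.31 and called 6 members higher and 0 lower, against 18.6% and 10.3% (28.9% in all). Just inside the threshold were Ryr2 at 1.19 (SE 0.33) and Dst at 0.74 (SE 0.23), and just outside it Dmd at -0.90 (SE 0.32) and Ryr1 at 0.70 (SE 0.28).

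**Figure D2:**
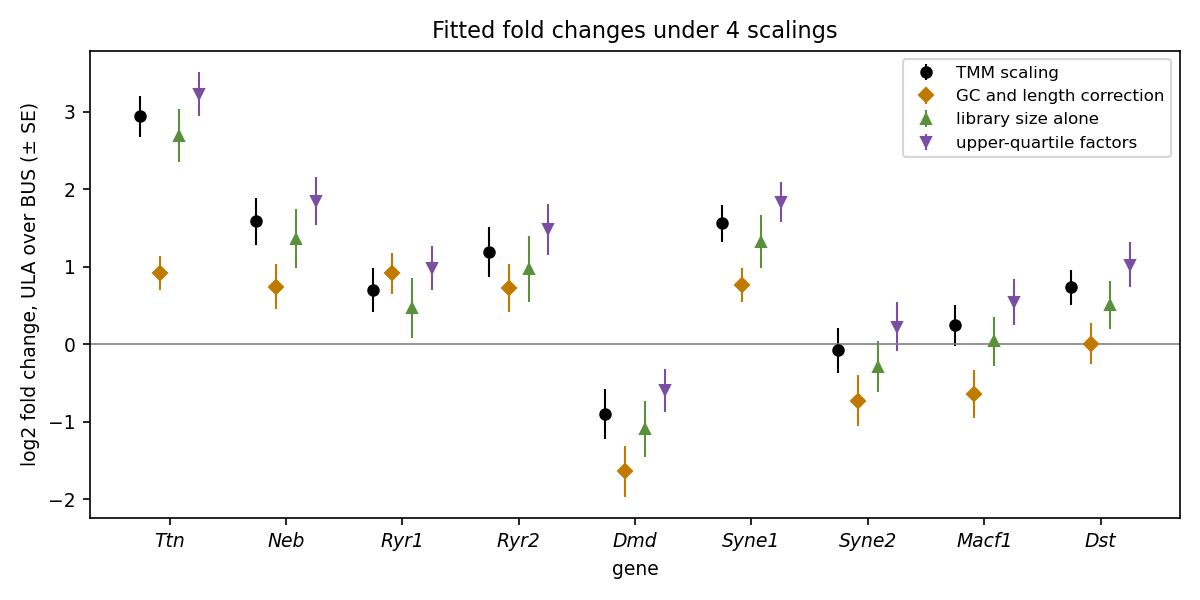
Log2 fold changes of ULA over BUS for the 9 members (vertical axis), fitted on TMM-scaled counts, with the offset for GC content and transcript length, on library size alone and with upper-quartile factors, with error bars of 1 SE. Ttn stands at 2.94 without the offset and 0.92 with it, Dmd at -0.90 and -1.64, and Dst at 0.74 and 0.01.

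The 9 genes summed to 22106 and 17401 counts in ULA libraries, against 22541 and 16878 in BUS libraries, which is 0.136% and 0.115% of all counts, against 0.124% and 0.0927%. Their makeup differed, since Ttn alone took 6.69% and 9.09% of member counts in ULA libraries, against 1.21% and 1.64% in BUS libraries. On the TMM scale the 9 summed to 1337 and 1379 CPM in ULA libraries, against 1186 and 831 CPM in BUS libraries, and without Ttn to 1248 and 1254 CPM, against 1172 and 817 CPM. The groups thus overlapped in summed raw counts and in shares of all counts, and did not on the TMM scale or in the Ttn share.

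Levels can be set side by side between genes only per length, here as CPM per kb of the longest annotated transcript. In the ULA group the level was highest for Dst at 18.5 ± 1.35 CPM per kb, then Syne2 at 16.5 ± 0.392 and Macf1 at 14.0 ± 0.786 (SD, n = 2 each). Syne1 followed at 1.99 ± 0.182, Neb at 1.43 ± 0.131, Dmd at 1.32 ± 0.248, Ryr1 at 1.08 ± 0.0722, Ttn at 1.01 ± 0.238 and Ryr2 at 0.540 ± 0.0160 CPM per kb. The plakins and nesprin-2 thus formed an upper tier, and neighbours overlapped for Neb and Dmd and for Ryr1 and Ttn. In the BUS group the order was Syne2 at 17.4 ± 6.72, Macf1 at 11.8 ± 3.49, Dst at 11.1 ± 0.609, Dmd at 2.46 ± 0.943, Syne1 at 0.674 ± 0.0791, Ryr1 at 0.663 ± 0.0367, Neb at 0.477 ± 0.152, Ryr2 at 0.237 ± 0.0325 and Ttn at 0.131 ± 0.00482 CPM per kb. There, Syne2 and Macf1, Macf1 and Dst, and Syne1 and Ryr1 overlapped. Among protein-coding genes the median level was 5.35 CPM per kb in ULA and 7.26 in BUS, so the upper tier lay above it in both groups and the other 6 members below. Ttn stood at the 19.7th percentile of protein-coding genes in ULA and the 1.48th in BUS, and Dst at the 77.5th in ULA and the 60.6th in BUS. Per kb of all merged exons of a gene, 6 of the 9 members changed place in the ULA order.

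Ratios of counts between members of a pair do not depend on how the libraries were scaled. For every 100 counts of Syne2 there were 14.3 and 16.8 of Syne1 in ULA libraries, against 3.59 and 7.41 in BUS libraries. The Ttn count was 4.02 and 7.36 times the Dmd count in ULA libraries, against 0.308 and 0.510 times in BUS libraries. Raw counts of Ttn thus exceeded those of Dmd in both ULA libraries, and the reverse held in both BUS libraries. Counts grow with transcript length, and Ttn is much the longer, so this gives no order of their levels. Per kb, Dmd had 1.49 and 1.14 CPM in ULA libraries and Ttn 0.837 and 1.17 CPM. In BUS libraries Dmd had 3.13 and 1.79 CPM per kb and Ttn 0.134 and 0.128. The Dst to Macf1 ratio was 1.20 and 1.43 in ULA libraries, against 0.801 and 1.13 in BUS libraries. For Ryr2 to Ryr1 the ratio was 0.563 and 0.534, against 0.446 and 0.340, and for Ttn to Neb 2.61 and 4.16, against 1.73 and 1.04. All 5 ratios had both ULA libraries above both BUS libraries. In each pair the gene with the higher fold change stands first, so their shared direction follows from that order. Ttn is in the pair with Neb and in the pair with Dmd, and no share over other gene pairs was taken. With the GC and length offset the differences in log2 fold change were 1.50 for Syne1 minus Syne2 and 2.55 for Ttn minus Dmd, and 0.17 for Ttn minus Neb and -0.19 for Ryr2 minus Ryr1.

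**Figure D3:**
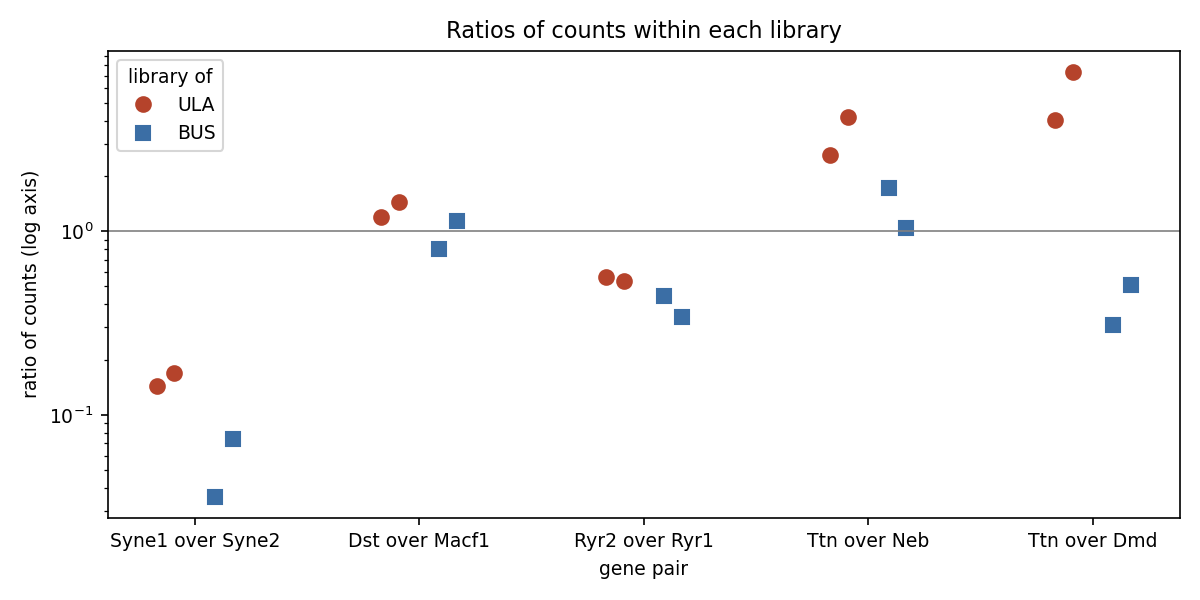
Ratios of raw counts between members of 5 pairs (log axis), with 1 point per library and ULA left of BUS. The Syne1 to Syne2 ratio is 0.143 and 0.168 in ULA libraries against 0.0359 and 0.0741 in BUS libraries, and the Ttn to Dmd ratio crosses 1 between the groups. Counts are not divided by transcript length, so a ratio above or below 1 gives no order of levels.

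The question of whether long transcripts outside the set behaved alike was taken up by length class. Among the 386 other protein-coding genes with a longest transcript over 10 kb the median log2 fold change was 0.40, with 24.6% called higher and 7.25% lower, while the 5429 genes of 3 to 5 kb had a median of -0.32, with 4.16% higher and 22.2% lower. Genes up to 1 kb had a median of 0.10, so the relation with length was not one-way. Leaving out the dynein heavy chain (Dnah) genes, very long genes of the axoneme, gave a median of 0.37 over 371 genes. The 70 other protein-coding genes with a longest transcript of at least 14.91 kb, the shortest of the members, had a median of 0.79, with 30 called higher (42.9%) and none lower. At an unadjusted p under 0.05 they counted 44 higher and 1 lower, and DESeq2 called 33 higher and 0 lower. Without ULA 2 only 7 of the 70 were called higher. The GC and length offset was fitted to these same counts, so it takes out by construction group differences that run with length, whatever their source. With it the 70 had a median of 0.35, with 8 called higher and 9 lower, and the class over 10 kb a median of 0.03. The lower medians of long genes with the offset are therefore no separate result. The members' median was 0.74 without the offset and 0.73 with it, but the gene at the median was Dst without it and Ryr2 with it. Ttn went from 2.94 to 0.92, Neb from 1.59 to 0.75, Syne1 from 1.56 to 0.77 and Ryr2 from 1.19 to 0.73. Dst went from 0.74 to 0.01, Macf1 from 0.25 to -0.64, Syne2 from -0.08 to -0.73 and Dmd from -0.90 to -1.64. Only Ryr1 went up, from 0.70 to 0.92. Ttn, at 2.94 (SE 0.26), lay above the highest of the 70 at 2.76 (SE 0.32). Dmd, at -0.90 (SE 0.32), lay below the lowest at -0.66 (SE 0.28). Both gaps were smaller than any of these errors, so neither rank is established. The alternative fits reuse the same libraries and do not add to this. Dmd stayed below the lowest of the others in 13 of the 15 alternative fits, except both with the GC and length offset, and Ttn above the highest in 12, except those and the fit without BUS 2 (2.89, against 2.93 for the highest of the others).

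**Figure D4:**
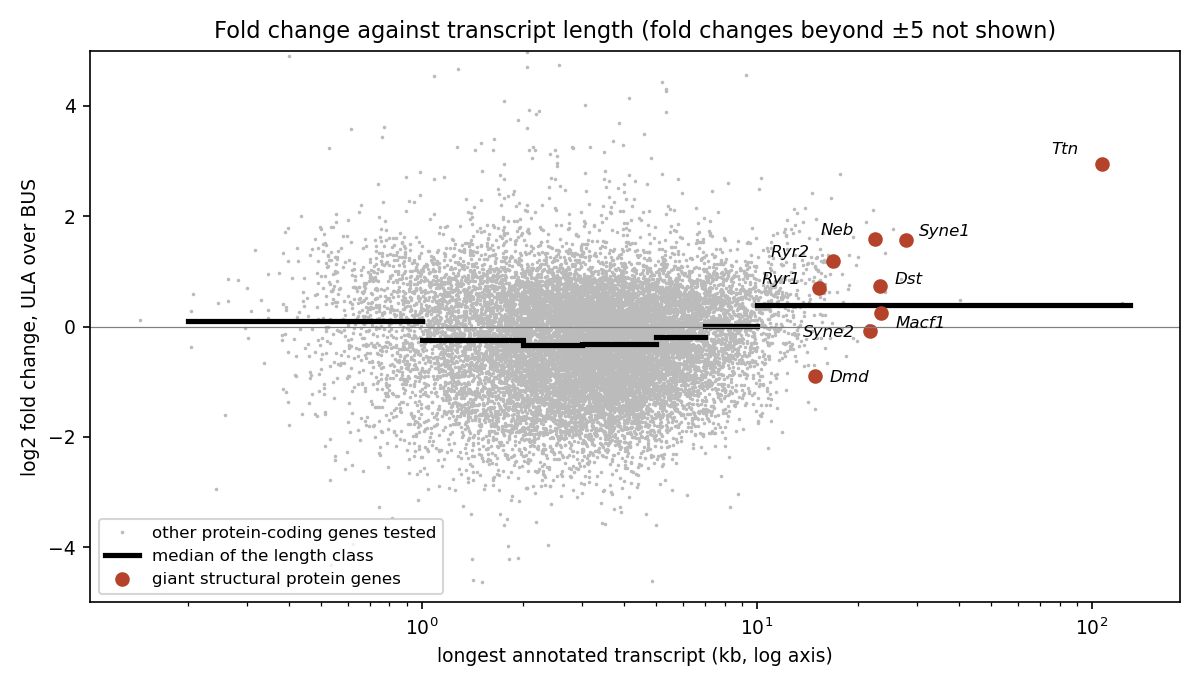
Log2 fold change of ULA over BUS (values beyond ±5 not shown) against the longest annotated transcript (kb, log axis) for tested protein-coding genes, with the median of each length class as a bar and the 9 members labelled. The class over 10 kb has a median of 0.40 and the class of 3 to 5 kb one of -0.32, and Ttn lies above and Dmd below all 70 other genes of at least 14.91 kb, though not below all genes over 10 kb. The gaps of Ttn and Dmd to the nearest of the 70 are smaller than the standard errors.

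Partners of the giant proteins were compared in 5 lists. Most of their genes are shorter than the members, with a median longest transcript per list of 2.94 to 6.57 kb. Other protein-coding genes of 2 to 3, 3 to 5 and 5 to 7 kb had median log2 fold changes of -0.33, -0.32 and -0.18. The list medians below lie near these, so a contrast with the members is not particular to partners. Of all protein-coding genes tested 6.94% were called higher and 20.5% lower, to be set beside the counts of each list. For the nesprins, the list of LINC complex (the bridge of SUN and nesprin proteins across the nuclear envelope) and nuclear envelope genes had 1 of 16 higher, 5 lower and 10 that did not pass, with a median log2 fold change of -0.38. Sun2, an inner membrane partner of nesprins, had 813 and 462 counts in ULA libraries, against 3566 and 1934 in BUS libraries, and fell by 1.72 on the log2 scale (SE 0.33, edgeR adjusted p = 0.0102). Syne4, the nesprin that binds kinesin-1, fell by 2.60 (adjusted p = 0.00916 by edgeR) and Tmem201, an inner nuclear membrane protein, by 1.01 (adjusted p = 0.0203). Tmem201 was at -0.15 with the GC and length offset (adjusted p = 0.651), and its call was also lost without either ULA library. The gene of the list that rose was Sun3, a testis SUN protein, at 0.90 (adjusted p = 0.0248), named after its value was seen, and at 0.43 with the offset (adjusted p = 0.157). The members of the nesprin family and their SUN partners thus did not move one way.

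For Dmd, the dystrophin complex list had 0 of 21 tested genes higher, 3 lower and 18 that did not pass, with a median of -0.33. None was higher at an unadjusted p under 0.05 either, or by DESeq2, which called 4 lower. Dag1, which codes for dystroglycan, the receptor that dystrophin binds, had 1421 and 908 counts in ULA libraries, against 6203 and 3343 in BUS libraries, and fell by 1.64 (SE 0.33, edgeR adjusted p = 0.0110). Sspn (sarcospan) fell by 1.65 (adjusted p = 0.0164 by edgeR). Utrn, the dystrophin homologue utrophin, had a log2 fold change of 0.31 (adjusted p = 0.372), and Sgcz was at 0 in all 4 libraries.

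For Macf1 and Dst, the list of plakins, spectrins and actin crosslinkers had 0 of 24 tested genes higher, 4 lower and 20 that did not pass, with a median of -0.24. At an unadjusted p under 0.05 there were 2 higher, and DESeq2 called 0 higher. Gas2l1, which links actin and microtubules, fell by 1.58 (adjusted p = 0.00888 by edgeR), Sptb (a spectrin) by 1.05 (adjusted p = 0.0227) and Mapre2, a microtubule end-binding protein, by 1.04 (adjusted p = 0.0281). The calls of Gas2l1 (-0.82, adjusted p = 0.0557) and Sptb (-0.57, adjusted p = 0.105) were lost with the GC and length offset. Plec, the plakin plectin, had a log2 fold change of 0.23 (adjusted p = 0.508). The keratin genes Krt5 and Krt14 were at 0 in all 4 libraries.

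For Ttn and Neb, the sarcomere list had 43 genes in the files and 31 tested, with 1 higher, 6 lower and 24 that did not pass, and a median of -0.20. Myom3, an M-band protein, fell by 1.65 (adjusted p = 0.0143 by edgeR), Obsl1, a cytoskeletal adaptor, by 1.41 (adjusted p = 0.0164) and Cmya5, a muscle-associated protein, by 1.92 (adjusted p = 0.0264). The gene that rose was Tmod1, a cap of thin filament ends, at 0.81 (adjusted p = 0.0472), named after its value was seen. With the GC and length offset 4 genes of the list were called higher and 3 lower, and the calls of Myom3 (-1.04, adjusted p = 0.0627) and Obsl1 (-0.33, adjusted p = 0.401) were lost. DESeq2 did not call Cmya5, which had 5 and 5 counts in ULA libraries, against 25 and 27 in BUS libraries. The Cmya5 call was lost with protein-coding genes alone (-1.73) as well. It was also lost without ULA 1 (-1.71) and without ULA 2 (-2.09).

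Of 24 skeletal muscle marker genes 12 were tested, 1 rose (Ckm, muscle creatine kinase, with 15 and 13 counts in ULA libraries, against 2 and 7 in BUS libraries, edgeR adjusted p = 0.0391) and 2 fell, while DESeq2 called 0 higher and 2 lower. Their summed level was 136 and 108 CPM in ULA libraries, against 137 and 143 CPM in BUS libraries, with no marker at 0 in all 4 libraries. Their counts ran widely: Mb, myoglobin, had 1 and 1 in ULA libraries, against 2 and 2 in BUS libraries, and Eno3, an enolase, had 1417 and 789, against 1313 and 1850. Eno3 alone made up 85.7 and 62.5 CPM of the sums in ULA libraries, against 69.1 and 91.1 CPM in BUS libraries. The sums thus rest largely on 1 gene and do not give the level of the other markers. Acta1, skeletal actin, had 8 and 21 counts in ULA, against 1 and 1 in BUS, and Mylpf, a fast muscle myosin light chain, 14 and 6, against 23 and 21. Acta1 counts were thus higher, and Mylpf counts lower, in both ULA libraries than in both BUS libraries. Heart muscle markers, of which 6 of 12 were tested with 0 higher and 2 lower, summed to 92.5 and 81.3 CPM in ULA libraries, against 107 and 85.7 CPM in BUS libraries. For both muscle lists the share over protein-coding genes tested was 6.94% called higher and 20.5% lower. The part of muscle RNA in the Ttn difference was not tested.

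For the ryanodine receptors, the calcium release list had 1 of 31 tested genes higher, 5 lower and 25 that did not pass, with a median of -0.26. The gene that rose was Ryr3, the third ryanodine receptor, with 363 and 295 counts in ULA libraries, against 118 and 219 in BUS libraries, and a log2 fold change of 1.41 (SE 0.33, edgeR adjusted p = 0.0174). All 3 ryanodine receptor genes thus had both ULA libraries above both BUS libraries on the CPM scale, a pattern held by 37.9% of all genes tested. Ryr3, with a longest transcript of 15.468 kb, is also among the 70 other long genes, whose median was 0.79. Nothing particular to the family is read from this. Asph, which codes for aspartyl hydroxylase and junctional proteins, fell by 1.57 (adjusted p = 0.0109 by edgeR) and Sri, the calcium-binding protein sorcin, by 1.53 (adjusted p = 0.0242). Ryr3 was at 0.97 with the GC and length offset (adjusted p = 0.0574). Over the 123 tested genes of the 5 lists 3 rose (2.44%) and 23 fell (18.7%), against 6.94% and 20.5% of protein-coding genes. There were 0 higher and 2 lower (Sun2 and Syne4) without ULA 2, 14 lower without ULA 1, and 13 higher and 50 lower without BUS 2. The Sertoli and Leydig sums given earlier moved in the same direction as the genes that fell, and their part in this was not tested.

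**Figure D5:**
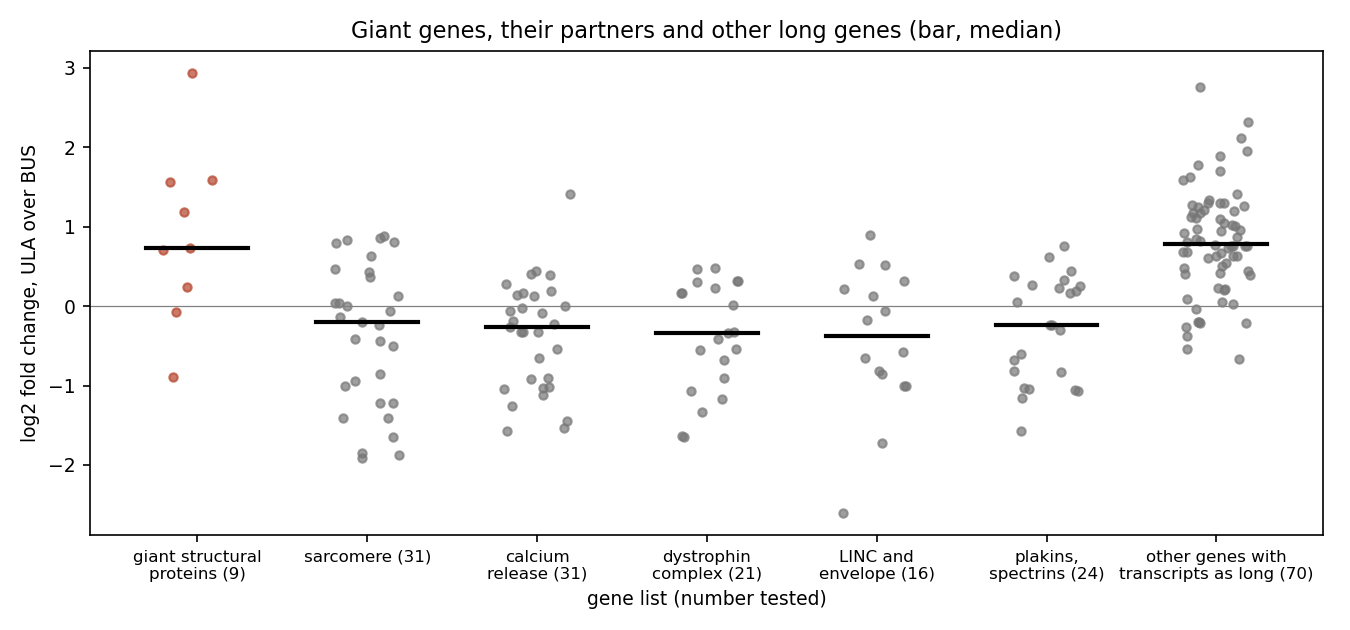
Log2 fold changes of ULA over BUS for the 9 members, the tested genes of the 5 partner lists and the 70 other genes with transcripts as long, with 1 point per gene and a bar at each median. The partner medians run between -0.38 for the LINC complex list and -0.20 for the sarcomere list, below the 0.74 of the members and the 0.79 of the other long genes. Most partner genes are shorter than the members, and the median over all protein-coding genes tested was -0.22.

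Genes that lie inside the members' spans share their chromosomal stretch but have their own counts. GENCODE M21 places 32 such genes, of which 26 were in the files, 6 had at least 10 counts over the 4 libraries and 3 were tested. Tsga8, a testis-specific gene inside Dmd on the opposite strand and without exon overlap, had 2037 and 1702 counts in ULA libraries, against 1749 and 2258 in BUS libraries, and a log2 fold change of 0.35 (SE 0.22, edgeR adjusted p = 0.253). Its raw counts overlapped between the groups, and on the CPM scale both ULA libraries, at 123 and 135, exceeded both BUS libraries, at 92.0 and 111. Gm12925, an antisense RNA inside Macf1, had 120 and 141 counts in ULA, against 126 and 108 in BUS, with a log2 fold change of 0.62 (adjusted p = 0.196 by edgeR). Gm26788, which overlaps a Dst exon on the opposite strand, had 14 and 13 counts in ULA, against 2 and 1 in BUS, and rose by 3.49 (SE 0.67, adjusted p = 0.0100). Without ULA 2 its adjusted p was 0.0578. Whether reads were counted by strand is not stated, so reads of Gm26788 and Dst may not be told apart. Gm13938, which overlaps a Ttn exon antisense, had 0 counts in all 4 libraries, which allows up to 0.182 and 0.238 CPM in ULA libraries, against 0.158 and 0.148 CPM in BUS libraries at 3 counts.

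The members did not share one profile over the 4 libraries. Measured as the Euclidean distance of centred log2 CPM from the mean profile of the 9, Dst was nearest at 0.174, Ryr2 at 0.228 and Ryr1 at 0.299, while Dmd was at 1.80 and Ttn at 2.02. Macf1, Syne1, Neb and Syne2 lay between, at 0.681, 0.731, 0.916 and 1.01. Among 10675 protein-coding genes with a mean of at least 10 CPM, whose median distance from the mean profile was 1.13, the nearest were Chd9, Nemp2, Akap9, Riiad1 and Mga, at distances of 0.0469 to 0.120 over these 4 libraries. Chd9, a chromatin remodeller, had 30.3 and 32.2 CPM in ULA libraries, against 18.2 and 15.5 CPM in BUS libraries. Akap9, a centrosomal and Golgi anchoring protein, had 110 and 116 CPM, against 66.6 and 61.8 CPM.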

How the data were processed

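Testis libraries of the ULA and BUS groups were analysed, 2 of each, grouped by their labels. The methods give 2 biological replicates and 50 mice in 5 groups. The labels state 25 mice, 5 to each of 5 groups. Nothing ties a library to an animal, so p-values measure the spread between these libraries alone. Raw counts per Ensembl gene were deposited by the authors without normalization. Fastp, STAR, GRCm38 and FeatureCounts are named in the methods and RSEM 1.3.1 in the submitters' processing notes, and which of these made the whole-number counts was not settled. The counting strand and the rule for reads that map to several places are not stated. GENCODE M21 (GRCm38) named 52081 of the 57010 identifiers and supplied coordinates, lengths and GC content, and the release that the authors counted holds identifiers beyond it.

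Genes were kept by edgeR's filterByExpr (at least 10 counts, and 15 in total), normalized with TMM factors and compared as ULA over BUS with the quasi-likelihood test of edgeR 4.0.16 in R 4.3.3, with Benjamini-Hochberg adjustment over 23023 genes and a threshold of 0.05. The biological coefficient of variation was 0.242. CPM are on the TMM scale and given as mean ± SD over 2 libraries. Standard errors were derived from the F statistic. The offset for GC content and length was a smooth term per library (mgcv 1.9.3, 8 basis functions). It was fitted to the log2 CPM of the same genes, so it removes any group difference that runs with length or GC content. An exact permutation of 2 libraries against 2 cannot give a two-sided p below 0.333, so none was used. Counts of the 23023 genes were also simulated for 2 libraries a group. There, 14 of 100 genes with a 2-fold change and 78 of 100 with a 4-fold change were called, and 13 unchanged genes. All other genes were left unchanged and no difference in composition was simulated, while 27.0% of genes were called in the data. The shares recovered therefore do not carry over to these data. The alternatives were DESeq2 1.42.0, limma-voom (limma 3.58.1), other scalings and filters, protein-coding genes alone, the offset, the replicate number as a block and leaving out each library. Precision was limited by 2 libraries a group and by the counts given beside each gene, and counting intervals and floors cover counting error only.

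The 9 members, the partner lists and the marker lists were chosen with earlier results of these data known. The named genes were all members, up to 3 called genes of each partner list by adjusted p, up to 2 genes inside each member's span with at least 10 counts in all, and the 5 genes nearest to the members' mean profile. Profiles were log2 of CPM plus 0.5, centred per gene. Genes named outside this rule are Sun3, Tmod1, Utrn and Plec, besides markers and the genes at 0 counts. A gene that the rule names is not reported here. Sequences were taken from RefSeq (GRCm38.p6).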

Additional observations from a re-analysis of the deposited data

How the results depend on the processing

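Of 135 log2 fold changes of the 9 members in 15 other fits, 104 kept their direction and their side of the threshold, 11 no longer passed it, 14 newly passed it and 6 changed sign. The sign of Syne2 (-0.08) turned with protein-coding genes alone (0.13), upper-quartile scaling (0.23) and ran between -0.44 and 0.36 when a library was left out, 0.36 being without BUS 1. The sign of Macf1 (0.25) turned with the GC and length offset (-0.64), with that offset and the replicate block (-0.61) and ran between -0.043 (without BUS 2) and 0.57 when a library was left out. Gm12925 turned to -0.032 with the offset, with or without the block. For 23 other named genes 279 of 340 values kept direction and side, 50 no longer passed, 9 newly passed and 2 changed sign.

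Over all genes, 2706 higher and 3512 lower became 4282 higher with upper-quartile scaling and 1475 higher and 2258 lower with protein-coding genes alone. Leaving out 1 library gave 656 to 5556 higher and 714 to 6429 lower. Of the members, 5 were called higher, against 3 with the offset, 3 on library size alone and 3 to 5 when a library was left out. None was called lower, against 1 each with DESeq2, the offset, library size alone and no filter, and 0 to 1 when a library was left out. Their median of 0.74 was 0.51 on library size alone, 0.93 with protein-coding genes alone and 1.03 with upper-quartile scaling. In the partner lists, 3 higher and 23 lower became 9 and 13 with the offset, 1 and 39 on library size alone, 7 and 14 with protein-coding genes alone and 11 and 14 with upper-quartile scaling, with 37 lower under no filter, and 0 to 13 higher and 2 to 50 lower when a library was left out. Of the genes inside the members' spans, 1 was called, against 3 under no filter, 0 with at least 10 counts in every library, 0 with protein-coding genes alone and 0 to 2 when a library was left out. The causes were not tested, beyond the fewer genes or libraries that a filter or an omission leaves by construction.

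The labels number the libraries 1 and 2 in both groups. Deviations from the group means correlated at r = 0.330 over genes between libraries of the same number, but with 2 pairs this does not establish pairing. With the replicate number as a block, 5151 genes were called higher and 5901 lower, 1 member lower, and 13 partner genes higher and 45 lower. With the block and the offset these were 5040, 5704, 3 members lower, 34 partner genes higher and 2 genes inside the members' spans.

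Depth limited the scarcest genes: 3 counts were 0.182 and 0.238 CPM in ULA libraries, against 0.158 and 0.148 CPM in BUS libraries. Lengths are annotated, not measured, and no batch of any library is stated, so batch and group cannot be told apart.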

Other observations

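Malat1, a long nuclear RNA chosen as a marker and named after its value was seen, had 38259 and 21248 counts in ULA libraries, against 5937 and 5536 in BUS libraries, and rose by 2.77 on the log2 scale (adjusted p = 0.00347 by edgeR). Of the list of 8 long nuclear RNAs, Malat1 among them, 2 rose and 3 fell, with a median log2 fold change of 0.02. The other that rose was Kcnq1ot1, with a longest transcript of 93.092 kb, at 2.84, also named after its value was seen. With the GC and length offset Kcnq1ot1 was at 0.64 and Malat1 at 2.59. Spermatocyte markers had 0 of 12 called in either direction by edgeR, 1 higher and 0 lower both at an unadjusted p under 0.05 and by DESeq2, and a median of 0.45. Their summed level was 1736 and 1531 CPM in ULA libraries, against 995 and 1351 CPM in BUS libraries. Of 12 spermatogonia markers 3 fell, with a median of -0.39, and of 10 macrophage markers none passed by edgeR, while 4 were lower at an unadjusted p under 0.05 and 2 by DESeq2. Endothelial markers fell in 4 of 10 cases and Schwann cell and nerve markers in 2 of 9. Of all genes tested 11.8% were called higher and 15.3% lower, and of protein-coding genes 6.94% and 20.5%. Nothing particular to a cell type is read from these small counts.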
